A study of Mus musculus with 2 samples.

Results

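Mature migratory dendritic cells are conventional dendritic cells (DCs) that have switched on the chemokine receptor Ccr7. They were taken here as the barcodes with at least 3 unique molecular identifiers (UMIs, each 1 captured transcript) of Ccr7 and at least 5 of Fscn1, Ccl22 and Il4i1 together. They also had under 3 UMIs of Siglech, which marks plasmacytoid DCs, and under 10 of the macrophage complement genes C1qa, C1qb and C1qc summed. None had a UMI of Cd3d, Cd3e, Cd3g or Ncr1, which mark T and NK cells. These limits left 808 of 22699 kept barcodes. A barcode was kept when 500 or more UMIs and 250 or more genes were counted and no more than 10% of UMIs were mitochondrial.

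The libraries came from wild-type (WT) mice with subcutaneous tumours of B16F10, a mouse melanoma line, from which CD45-positive cells, the leukocytes, had been sorted and run on the 10x Genomics droplet platform. Both groups received transferred bone marrow-derived macrophages (BMDMs): untreated ones in the control group, and BMDMs treated with the type 2 cytokine IL4 in the IL4 group. Their treatment field alone separates the groups, because the protocol field lists IL4-treated cells under either library. Each group is 1 library, neither the number of mice nor their age is given, and host and transferred cells cannot be told apart in the counts.

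DCs take up antigen in a tissue, and on maturation they reduce uptake, carry peptide to the cell surface on MHC molecules and raise the ligands that T cells need for activation. Ccr7 then guides them along gradients of Ccl19 and Ccl21 into lymph vessels and lymph nodes. In tumours, DCs with this programme are known for holding T cell-activating and T cell-restraining genes side by side.

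With 1 library per group no test between the groups is possible, so no p-value is given and every fold change lacks a replicate check. The 95% intervals below (exact Poisson for levels, Clopper-Pearson for shares, Newcombe for a difference of shares, exact conditional binomial for folds) cover counting error only. Levels are CPM (UMIs of a gene scaled to a common total of all UMIs), summed over all members of a library.

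The control library held 275 members with 3995823 UMIs and the IL4 library held 533 with 6394069. The median member had 14211 UMIs and 3111 genes in the control library and 11415 UMIs and 2796 genes in the IL4 library, against 9018 and 8112 UMIs in the other kept barcodes. Mitochondrial UMIs made up a median of 0.967% and 0.762% of a member. The libraries shared 23 barcode sequences, but no barcode was a member in both. No doublet caller was run, so droplets with more than 1 cell may remain among the members.

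The genes of the rule were high in both libraries by construction. Ccr7 (chromosome 11, 99144196 to 99155077, minus strand, mm10) had a median of 27 UMIs per control member and 22 per IL4 member, with maxima of 106 and 86. Fscn1, which bundles actin in the long dendrites of mature DCs (chromosome 5, 142960343 to 142973185), had medians of 17 and 14, and 48 control and 118 IL4 members had none. Ccl22, a chemokine that attracts Ccr4-bearing T cells (chromosome 8, 94745590 to 94751699), had medians of 7 and 6, and Il4i1, a secreted amino acid oxidase (chromosome 7, 44816387 to 44840809), medians of 4 and 3. In CPM, Ccr7 stood at 2035 in control members and 71.2 in the other control barcodes, and at 2012 and 91.7 in the IL4 library. The member levels of all 4 genes were within 10% of each other in the libraries, and these values describe the rule rather than test it.

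Few barcodes lay at the edge of the Ccr7 limit, and many with Ccr7 failed the second limit. Exactly 3 Ccr7 UMIs were found in 3 control and 8 IL4 members, and 3 control and 12 IL4 barcodes with 2 UMIs passed all the other limits. The sum of Fscn1, Ccl22 and Il4i1 was 5 to 7 in 23 control and 44 IL4 members. By contrast, 253 control and 436 IL4 barcodes failed that limit alone: their median Ccr7 count was 5 and 6 and their median sum of the other genes 0. A further 44 control and 88 IL4 barcodes failed only through a T or NK cell UMI, with median Ccr7 of 29 and 20 and median depths of 17341.5 and 17461.5 UMIs, and 35 and 57 failed only through the complement genes.

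The label was checked on genes outside the rule. Flt3, the growth factor receptor of the DC lineage, stood at 398 CPM in control and 334 CPM in IL4 members, against 35.3 and 33.8 CPM in the other barcodes. Zbtb46, a transcription factor of conventional DCs, stood at 211 and 203 CPM against 23.5 and 26.7 CPM. The leukocyte gene Ptprc, which encodes CD45, was present at 386 and 352 CPM, below the 716 and 775 CPM of the other barcodes. All 9 macrophage markers tested besides the complement genes of the rule were at least 1.5-fold lower in members than in other barcodes of both libraries. Their summed levels were 478 and 556 CPM against 2595 and 2657 CPM, and the B cell gene Ms4a1 was at 0. The rule limits complement genes in members and not in the other barcodes. Lower macrophage markers therefore follow in part from the rule and are no separate check of the label. Of 19 DC identity genes and transcription factors, 9 were higher and 4 lower than in other barcodes of both libraries. Across all genes tested these shares were 11.8% and 32.4%. The median log2 ratios of that list were 0.08 in control and 0.02 in IL4. So Flt3 and Zbtb46 go with the label in both libraries, while the list as a whole was mixed.

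Members stood apart from the rest of the tumour leukocytes in a large, shared set of genes. At least 1.5-fold higher levels in both libraries were found for 11.8% of 9883 genes tested and at least 1.5-fold lower levels for 32.4%. Because the members were picked from these same barcodes, this and the comparisons with other DCs and macrophages that follow are descriptions. Cacnb3, a subunit of voltage-gated calcium channels, stood at 476 CPM in control members and 8.57 CPM in other barcodes, a 55.5-fold difference (51.0 to 60.4), and at 458 and 11.98 CPM in the IL4 library, 38.3-fold (35.9 to 40.7). Mreg, which acts in the transport of lysosome-related organelles, stood at 970 and 694 CPM in members and 28.7 and 20.6 CPM outside them. Socs2, a feedback inhibitor of cytokine receptors, stood at 447 and 446 CPM against 14.5 and 19.3 CPM. Slco5a1, of the organic anion transporter family, had the highest control ratio of the named genes other than the gate genes, 83.0-fold (66.1 to 105), and a smaller one of 37.9-fold (31.6 to 45.6) in the IL4 library. The other genes named by rank were Slc22a23, Cd200, Adcy6, Tmem150c, Slc44a5, Il12b, Syn3 and Nudt17, each more than 20-fold higher in both libraries.

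Beyond the gate genes, 24 of 26 genes of the known mature DC programme were at least 1.5-fold higher than in other barcodes of both libraries and none was lower. The 2 exceptions were Kif2a and AW112010. Tbc1d4, a regulator of vesicle traffic, stood at 1143 and 1003 CPM in members against 46.3 and 52.6 CPM. Fabp5, a fatty acid carrier, stood at 3756 and 2944 CPM against 421 and 393 CPM. The same programme was higher against nearer relatives too. In members, 24 of 26 genes exceeded cDC1 barcodes (99 control and 108 IL4, selected on Xcr1 and Clec9a). Against Cd209a barcodes (368 and 435, selected on this cDC2 marker) 25 of 26 were higher. Both classes were limited to barcodes with under 3 Ccr7 UMIs, so DCs with more Ccr7 were left out of them. A higher mature programme in members therefore follows in part from the selection. Across all genes tested, 15.9% were higher against the cDC1 barcodes and 13.2% against the Cd209a barcodes.

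**Figure D1:**
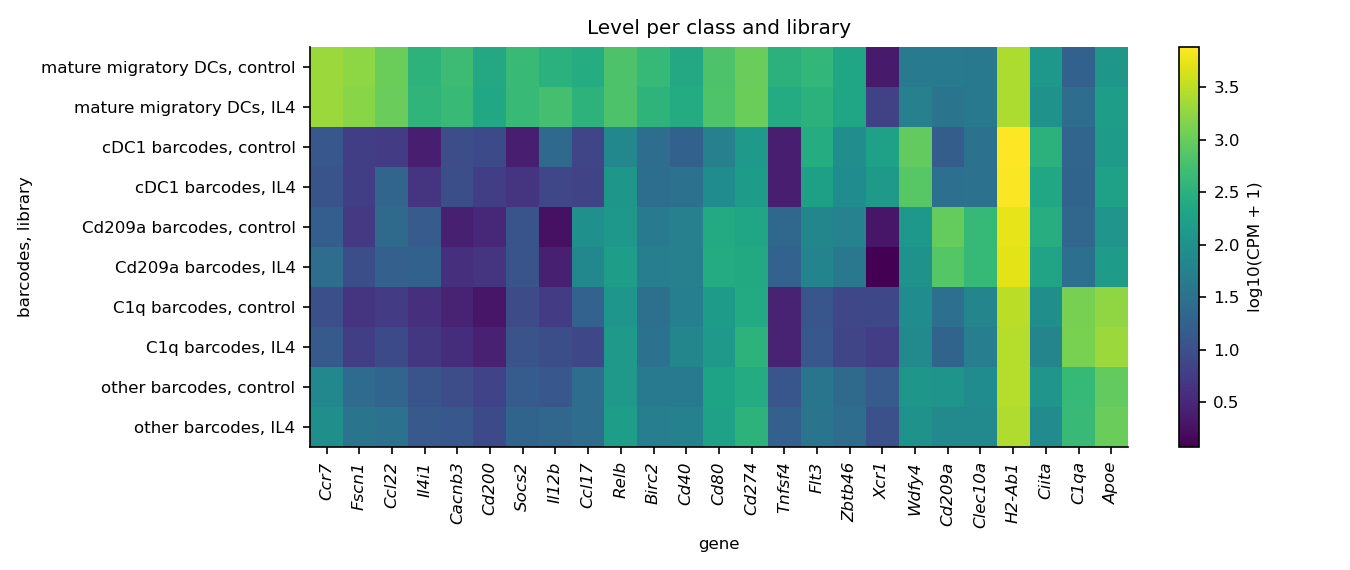
Colour gives log10(CPM + 1) for 25 genes (columns) in members, cDC1, Cd209a, C1q and other barcodes of the control and IL4 libraries (rows). The rows of members are high for Ccr7, Fscn1, Ccl22, Cacnb3 and Cd200 in both libraries, while Xcr1 and Cd209a are highest in the barcodes selected on them, by construction.

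Genes of T cell costimulation, ligands and receptors, were mostly high. Of 14 costimulatory genes tested, 11 were at least 1.5-fold higher in members than in other barcodes of both libraries and only Cd48 was lower. Cd40, the receptor through which helper T cells license DCs, stood at 234 and 264 CPM, against 42.7 and 55.7 CPM in other barcodes, 16.9 and 30.0 CPM in cDC1 barcodes and 52.9 and 52.8 CPM in Cd209a barcodes. Cd80, a ligand of Cd28, stood at 652 and 679 CPM against 194 and 180 CPM in other barcodes. Its partner Cd86 differed less, at 1201 and 1262 CPM against 912 and 899 CPM, under the 1.5-fold limit. Among the ligands of the TNF family, Tnfsf4 (OX40 ligand) stood at 330 and 258 CPM against 11.5 and 16.2 CPM, and Cd70, the ligand of Cd27, at 39.8 and 63.0 CPM against 1.74 and 2.44 CPM. Ly75, the antigen uptake receptor DEC-205, stood at 419 and 486 CPM against 18.9 and 23.5 CPM.

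Some genes that restrain T cells were high in the same summed profiles, and others were low. Of 16 inhibitory and regulatory genes, 9 were higher than in other barcodes of both libraries and 6 were lower. Across all genes tested these shares were 11.8% and 32.4%. Cd274, which encodes PD-L1, stood at 1024 and 1072 CPM in members, 264 and 340 CPM in other barcodes, 130 and 144 CPM in cDC1 barcodes and 208 and 243 CPM in Cd209a barcodes. Pdcd1lg2 (PD-L2) stood at 149 and 146 CPM against 32.2 and 33.7 CPM in other barcodes. Cd200, the ligand of an inhibitory myeloid receptor, stood at 236 and 227 CPM against 5.92 and 7.46 CPM, 39.9-fold (35.8 to 44.4) and 30.4-fold (28.0 to 33.1). The lower genes were Lgals9, Havcr2, Vsir, Tgfb1, Il10 and Ctla4. After each barcode was thinned to 2000 UMIs, Cd200 was seen in 37.1% of control and 30.0% of IL4 members. The shares were 0.897% and 1.81% in lymphocyte barcodes, which serve as a rough measure of free RNA. Those barcodes were selected for few UMIs of the complement genes, Cd74 and H2-Aa. Their shares may therefore understate free RNA from myeloid cells and DCs. The median depth before thinning was 14211 and 11415 UMIs in members and 7067 and 7407 in those lymphocyte barcodes.

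NF-kB genes were high, among them those of the alternative pathway. Of 18 subunits, inhibitors and regulators of this transcription factor family, 11 were higher than in other barcodes and none was lower, and all 18 were higher than in cDC1 barcodes. Relb, the subunit of the alternative pathway, stood at 647 and 657 CPM against 131 and 163 CPM in other barcodes. Rel stood at 1857 and 1940 CPM against 694 and 894 CPM, and Map3k14, the kinase that starts the alternative pathway, at 394 and 394 CPM against 98.0 and 114 CPM. Birc2, a ubiquitin ligase at the receptors that feed it, stood at 418 and 353 CPM against 44.1 and 50.3 CPM. Rela, the inhibitor genes Nfkbia, Nfkbie and Nfkbiz, and Tnfaip3, Tnip1 and Bcl3 did not pass 1.5-fold in both libraries.

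Secreted signals were selective. Of 19 chemokines tested, 4 were higher in members than in other barcodes of both libraries (Ccl17, Ccl5, Cxcl16 and Cx3cl1) and 11 were lower. Ccl17, which binds the same receptor as Ccl22, stood at 268 and 338 CPM against 26.8 and 26.1 CPM. Ccl5, which attracts T cells, stood at 3150 and 5016 CPM against 412 and 812 CPM. Ccl2, which recruits monocytes, was lower, at 200 and 316 CPM against 1392 and 1539 CPM. Of 17 cytokines, Il12b, Ebi3 and Il15 were higher and 7 were lower. Il15ra, which presents IL-15 to neighbouring cells, was also higher, at 160 and 142 CPM against 12.4 and 13.5 CPM. So was Il2ra, at 246 and 215 CPM against 11.3 and 18.2 CPM. The counts differed against other DCs. Against the cDC1 barcodes, 8 of 17 chemokines were higher and 0 lower, and 7 of 14 cytokines were higher and 2 lower. Against the Cd209a barcodes, 7 of 18 chemokines were higher and 5 lower, and 6 of 17 cytokines were higher and 3 lower. Across all genes, 15.9% were higher and 27.6% lower than in cDC1 barcodes, and 13.2% and 24.9% than in Cd209a barcodes.

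Il12b, which encodes the p40 chain shared by IL-12 and IL-23, lies on chromosome 11, 44400063 to 44414033, plus strand. Its level was 318 CPM in control and 579 CPM in IL4 members, against 11.98 and 20.5 CPM in other barcodes, a ratio of 26.5 (24.4 to 28.8) and 28.3 (26.9 to 29.7). The 250 bases before its start are shown because this promoter is a known target of NF-kB, the family whose genes were high above. The sequence is from RefSeq on build GRCm38.p6, plus strand, chr11:44399813-44400062, and the capitals mark the letters AATTCCCC.

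Il12b promoter: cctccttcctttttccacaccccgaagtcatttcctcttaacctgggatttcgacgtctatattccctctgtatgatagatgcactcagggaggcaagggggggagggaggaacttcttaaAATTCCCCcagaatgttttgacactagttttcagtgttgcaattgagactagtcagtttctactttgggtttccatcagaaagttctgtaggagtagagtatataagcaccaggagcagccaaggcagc

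This stretch held no match to the full NF-kB consensus on either strand, which 7.25% of 32851 promoters of the same length held. It held 1 match to AATTCCCC, the letters that end many NF-kB sites. That motif was chosen with this sequence known, and 0.734% of the promoters held it on either strand. A match is a description of letters and not a bound site.

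Antigen presentation did not move as a block. The MHC class II chain H2-Ab1 stood at 2585 and 2559 CPM in members, close to the 2891 and 2641 CPM of other barcodes, but below the 7595 and 7095 CPM of cDC1 barcodes and the 5465 and 5334 CPM of Cd209a barcodes. Of 15 class II genes, 5 were higher and 3 lower than in other barcodes, while 8 were lower than in cDC1 barcodes, where 27.6% of all genes were lower. Ciita, the master activator of class II transcription, stood at 128 and 104 CPM, against 333 and 222 CPM in cDC1 barcodes. March1, the ubiquitin ligase that sends class II molecules to degradation, stood at 20.8 and 14.4 CPM against 92.6 and 70.6 CPM in other barcodes. H2-Eb2, a further class II chain, was higher, at 102 and 73.7 CPM against 3.54 and 3.74 CPM.

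Most genes of the uptake and sensing lists were low relative to the other barcodes. Of 17 receptors on the uptake and scavenger list, 16 were at least 1.5-fold lower in members than in other barcodes and none was higher. All 17 were lower than in the C1q barcodes (2055 control and 2964 IL4), where 29.7% of all genes were lower. The uptake receptor Ly75, counted above with the costimulatory genes, is not on this list and was higher in members. The rule limits complement genes in members, so lower levels of macrophage genes on this list follow in part from the rule. Mrc1, the mannose receptor, stood at 41.8 and 42.5 CPM against 246 and 198 CPM in other barcodes. Of 15 Toll-like receptor and adaptor genes, 9 were lower and none higher, with Tlr4, the receptor of lipopolysaccharide, at 7.01 and 6.72 CPM against 49.7 and 35.6 CPM. Against the cDC1 barcodes, 4 of 14 uptake genes were lower and 3 higher, and 5 of 11 sensing genes were lower and 1 higher. Against the Cd209a barcodes, 8 of 16 and 7 of 11 were lower and 0 and 1 higher. Of 17 genes of glycolysis and the hypoxia response, 11 were lower than in other barcodes. Of the same 17, 2 were lower than in cDC1 and 5 than in Cd209a barcodes. Across all genes, 27.6% were lower than in cDC1 and 24.9% than in Cd209a barcodes. Of 17 survival genes, 9 were higher and 5 lower than in other barcodes. Among the survival genes, Bcl2a1b, an antiapoptotic relative of Bcl2, stood at 1510 and 1566 CPM against 293 and 399 CPM. It shares reads with near-identical copies, so its own level is uncertain.

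Movement genes were high in part: 11 of 19 genes of migration, adhesion and cytoskeleton were higher and 3 were lower. Marcksl1, which links membrane to actin, stood at 1297 and 1308 CPM against 204 and 403 CPM, and Sema7a at 340 and 345 CPM against 12.7 and 19.0 CPM. Itgb7, an integrin chain of gut homing, was lower, at 25.5 and 30.5 CPM against 82.5 and 76.8 CPM. The genes lowest in members relative to other barcodes by rank, among them Gzmb, Nkg7, Gzma and Skap1, belong to T and NK cells, which the rule removed.

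Of 14 cDC1 markers, 8 were lower and 3 (Irf8, Batf3 and Id2) higher in members than in other barcodes of both libraries, and of 14 cDC2 markers 9 were lower and 1 higher. Against the cDC1 barcodes 4 of 12 cDC2 markers were higher and 1 lower, and against the Cd209a barcodes 4 of 8 cDC1 markers were higher and 3 lower. Xcr1, the chemokine receptor of cDC1, stood at 1.25 and 5.47 CPM in members against 13.6 and 9.43 CPM in other barcodes, and Wdfy4, which cDC1 need for cross-presentation, at 42.3 and 52.4 CPM against 122 and 107 CPM in other barcodes and 926 and 779 CPM in cDC1 barcodes. Irf8, a transcription factor on which cDC1 depend, stood between the subsets, at 569 and 719 CPM against 1789 and 1649 CPM in cDC1 and 100 and 149 CPM in Cd209a barcodes. Cd209a stood at 43.8 and 33.2 CPM. A division by summed UMIs put 6 control and 15 IL4 members on the cDC1 side (at least 3 UMIs of Xcr1, Clec9a, Cadm1 and Naaa and over 2 times those of the other set). It put 149 control members (54.2%) and 247 IL4 members (46.3%) on the cDC2 side (Sirpa, Itgam, Cd209a, Mgl2 and Clec10a), and left 120 and 271 undivided, of which 35 and 94 had no UMI of either set. This division is a range and not a type, since 34 and 53 members lay exactly at the limit of 3 UMIs and undivided members were shallower, with median depths of 12157 and 9977 UMIs.

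Members varied most in Ccl5. To compare members at equal depth, each was thinned to 5000 UMIs; 10 control and 39 IL4 members were too shallow for this. The Fano factor (variance over mean, near 1 for counting noise) had a median of 1.35 and 1.34 over 3051 genes, and it was 35.3 and 44.4 for Ccl5, whose thinned count ran from 0 to 201 in control and from 0 to 217 in IL4 members around medians of 9 and 14. Il12b had Fano factors of 16.1 and 22.7: 217 of 265 control and 341 of 494 IL4 members had no UMI, and single members reached 44 and 65. The chemokine Cxcl2 reached 17.6 and 31.9, and Cd74, the invariant chain of class II, 15.9 and 16.3. Malat1, Actb, Tmsb4x, Cst3, Fth1, Fabp5 and Lyz2 were also among the most variable genes. Ccl24, with Fano factors of 40.2 and 29.2, was left out of this ranking by its mean of 0.107 in IL4 members.

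**Figure D2:**
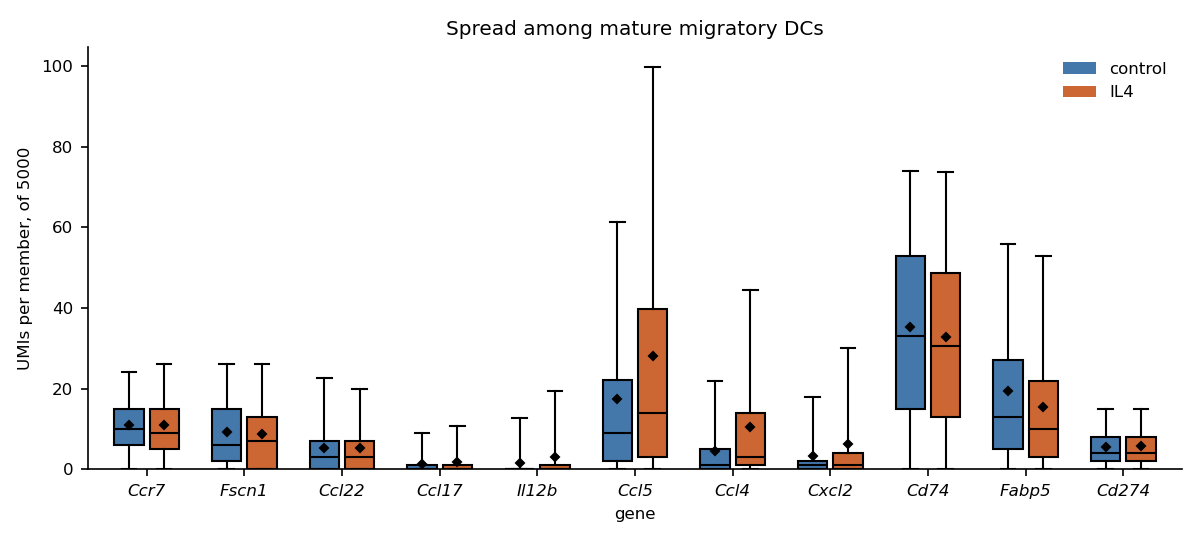
UMIs per member after thinning to 5000 UMIs, for 265 control and 494 IL4 members (boxes show quartiles, the line the median, the diamond the mean, whiskers the minimum and the 95th percentile). Ccl5 has medians of 9 and 14 and a long upper range in both libraries, and Il12b has a median at 0 in both.

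Some of these genes varied together across members, given here as Pearson's r of log counts over the same 265 and 494 thinned members of 1 library each. Ccl5 and Cd74 had r of -0.44 in control and -0.53 in IL4 members, and Fscn1 and Cd74 -0.42 and -0.44. Ccl5 and Fscn1 had r of 0.39 and 0.48. So members with many Fscn1 UMIs tended to have many Ccl5 and few Cd74 UMIs in both libraries.

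This led to a division of the members by Fscn1, chosen after these values were seen. Under 3 Fscn1 UMIs were found in 59 control members (21.5%, 16.8 to 26.8) and 144 IL4 members (27.0%, 23.3 to 31.0), a difference of 5.56 points with an interval of -0.78 to 11.5. Median depths were close: 14054 UMIs under the limit and 14263 above it in control, 11886.5 and 11285 in IL4 members. Of 9305 genes, 7.73% were at least 1.5-fold higher in the members with few Fscn1 UMIs in both libraries and 7.83% at least 1.5-fold lower. These members were selected on a gene of the programme, so the values that follow are descriptions too.

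In members with few Fscn1 UMIs, 6 of 13 cDC2 markers were at least 1.5-fold higher in both libraries and none was lower. Uptake receptors (7 of 17 higher, none lower) and macrophage markers (3 of 8 higher, none lower, with median log2 ratios of 0.60 and 0.52) moved with them, and their part in this was not tested. Mgl2, a lectin of cDC2, stood at 266 CPM in the members with few Fscn1 UMIs and 22.7 CPM in the other control members, and at 234 and 29.7 CPM in the IL4 library. Clec10a, a related lectin, stood at 96.4 against 25.3 CPM and at 101 against 16.9 CPM. H2-Ab1 stood at 4843 against 1955 CPM and at 4179 against 1935 CPM, and 11 of 15 class II genes and 10 of 17 glycolysis genes were higher in them in both libraries. By contrast, 20 of 26 genes of the mature programme were lower in them and none higher, with median log2 ratios of -1.35 and -1.44. Cd200 stood at 71.1 against 282 CPM and at 65.3 against 289 CPM, Ccl5 at 1052 against 3736 CPM and at 1963 against 6189 CPM, and Tcf7, a transcription factor best known in T cells, at 2.29 against 61.5 CPM and at 3.38 against 65.2 CPM. Il12b differed little by this division, at 280 against 328 CPM in control and 541 against 594 CPM in IL4 members.

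**Figure D3:**
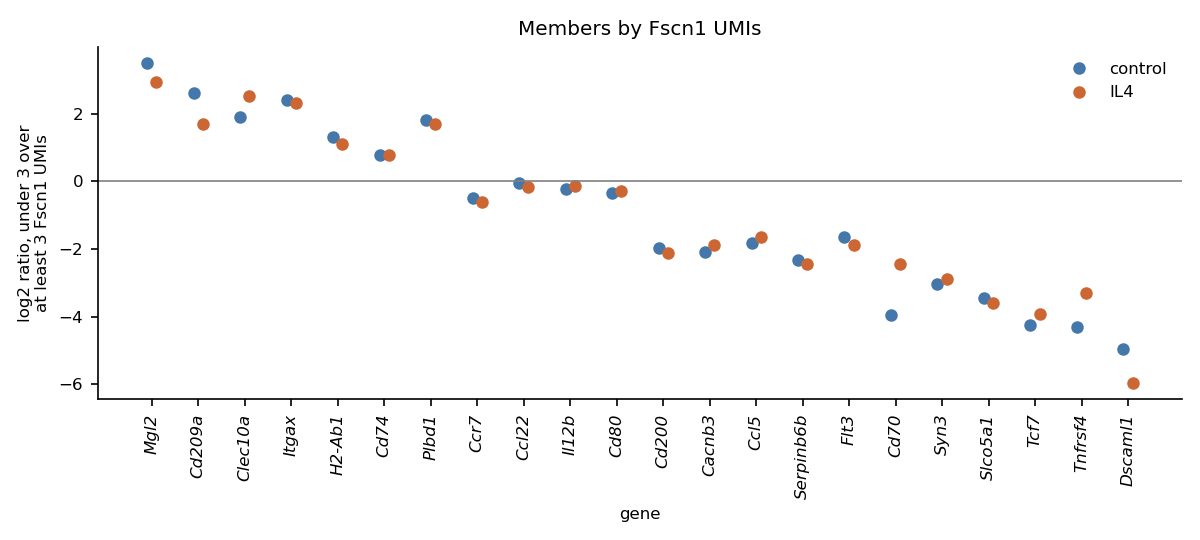
Log2 ratio of the level in members with under 3 Fscn1 UMIs over that in members with at least 3 for 22 genes, in the control and IL4 libraries (points). Mgl2, Clec10a and H2-Ab1 lie above 0 and Cd200, Ccl5, Tcf7 and Cd70 below 0 in both libraries.

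The share of members among kept barcodes was 3.08% (2.73 to 3.46) in the control library and 3.87% (3.56 to 4.21) in the IL4 library, a difference of 0.796 points (0.307 to 1.27). Thinning every barcode to 5000 UMIs before the limits were applied gave a difference of 0.765 points (0.183 to 1.33). Among barcodes with UMIs of Xist and none of Y-linked genes the difference was 0.464 points with an interval of -0.195 to 1.07, and among barcodes with Y-linked UMIs and no Xist it was 2.83 points (1.40 to 4.43). The libraries differed in this make-up: of the members with UMIs of 1 kind, 37.6% in control (80 of 213) and 17.1% in IL4 (74 of 432) were Y-only, against 36.8% and 10.9% of kept barcodes. Its part in the results between the libraries was not tested. With members of at least 3 Fscn1 UMIs alone the difference was 0.41 points, with an interval of -0.0203 to 0.826. Since each share comes from 1 library, the spread between mice is not known.

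Most defining genes of the members differed by under 1.5-fold between the libraries, while some secreted signals and heat-shock genes differed by more. Of 10768 genes with at least 20 UMIs, 4.64% were at least 1.5-fold higher in IL4 members on the scale of log2(CPM + 1) and 6.44% were at least 1.5-fold lower, around a median log2 ratio of -0.01. Among 7049 genes with at least 100 UMIs the shares were 2.4% and 3.33%. This scale understates changes of low genes. No gene of the NF-kB list (18), the DC identity list (19), the MHC class I list (22) or the MHC class II list (15) passed 1.5-fold in either direction. In the mature programme 2 of 26 genes, Slco5a1 and Apol7c, were lower. Of the 12 genes that ranked highest in members, Syn3 and Slco5a1 were lower and Il12b was higher in the IL4 library. Ccl22 stood at 1063 CPM in control and 1015 CPM in IL4 members, Cd274 at 1024 and 1072 CPM, Cd86 at 1201 and 1262 CPM and Cd200 at 236 and 227 CPM.

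**Figure D4:**
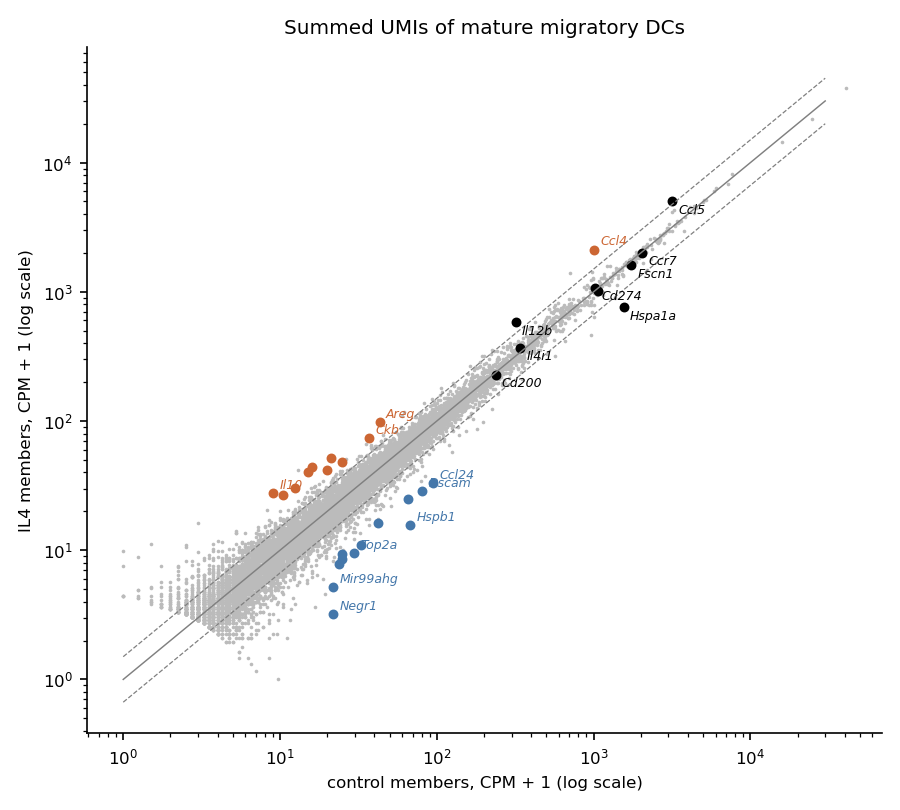
Level of each gene in control (x axis) and IL4 members (y axis), as CPM + 1 on log scales, with the line of equality and dashed lines at 1.5-fold. Coloured points are the genes named by rank as highest and lowest, of which some are labelled, and Ccr7, Fscn1, Il4i1 and Cd274 lie near the line.

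Of 19 chemokines, 8 were at least 1.5-fold higher in IL4 members, 1 was lower and 10 passed in neither direction, with a median log2 ratio of 0.46. In Y-only members alone that median was 0.08. Ccl4, a chemokine of inflammation, stood at 1006 CPM in control and 2118 CPM in IL4 members, 2.11-fold (2.03 to 2.18), with UMIs in 243 of 275 and 516 of 533 members. Ccl5 stood at 3150 and 5016 CPM, 1.59-fold (1.56 to 1.63), and Cxcl2, which attracts neutrophils, at 710 and 1386 CPM, 1.95-fold (1.87 to 2.04). Cxcl3 stood at 15.02 and 42.9 CPM, and Ccl2, Ccl3, Ccl7 and Ccl12 were the others that were higher. The other barcodes of the libraries differed in the same direction for Ccl4 (2726 and 4279 CPM), Ccl5 (412 and 812 CPM) and Cxcl2 (4008 and 5372 CPM), but not for Cxcl3 (125 and 118 CPM). Summed macrophage markers in members were 559 and 660 CPM and summed monocyte markers 1024 and 1156 CPM. The part of other cells or of free RNA in these differences was not tested.

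The only lower chemokine was Ccl24, a chemokine that draws eosinophils, with 94.1 and 31.9 CPM. It was seen in 25 control and 23 IL4 members, and 1 member alone held 274 of 376 control UMIs and 140 of 204 IL4 UMIs. Among members with at least 3 Fscn1 UMIs its direction turned, with 8.002 CPM in control and 40.5 CPM in IL4 members.

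Of 19 cytokines, 7 were higher, 1, Il6, was lower and 11 passed in neither direction, with a list median of 0.42. Il12b stood at 318 and 579 CPM, 1.82-fold (1.71 to 1.94), and it was found in more members, 63 of 275 and 196 of 533. At 2000 UMIs per member it was seen in 14.2% of control (10.3 to 18.9) and 25.5% of IL4 members (21.8 to 29.4), and in 0 of 223 and 0 of 386 lymphocyte barcodes, which allows shares of up to 1.35% and 0.777%. As for Cd200, the selection of the lymphocyte barcodes may understate free RNA. Too shallow for this thinning were 0 control and 7 IL4 members and 2 and 4 lymphocyte barcodes. Without thinning the shares were 22.9% and 36.8%. The difference was larger in members outside the cDC2 side, at 341 CPM in control and 881 CPM in IL4, while cDC2-side members stood at 303 and 316 CPM. Other barcodes had 11.98 and 20.5 CPM.

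Il10, an anti-inflammatory cytokine, stood at 8.01 and 26.6 CPM, 3.32-fold (2.27 to 5.01). Its share at 2000 UMIs, 1.45% of control and 2.47% of IL4 members, was below that of lymphocyte barcodes, 4.04% and 5.70%, which can transcribe Il10 themselves. The part of free RNA was not tested, and other barcodes differed likewise, at 39.7 and 109 CPM. Areg, a ligand of the EGF receptor, stood at 42.3 and 97.7 CPM, 2.31-fold (1.95 to 2.76), in 19 and 96 members. A single control member held 68 of the 169 UMIs. Its thinned share of 2.18% and 8.17% stood beside 2.69% and 5.18% in lymphocyte barcodes. Il1a was seen at 8 UMIs in control and 98 in IL4 members, 7.66-fold (3.74 to 18.2), and Csf2 at 0 and 22, at least 4.58-fold higher when control is set at the floor of 3 counts over the group, or 0.751 CPM.

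Further genes named by rank as higher in IL4 members were Ifit3, Plagl1, Ly6c2, Sgms2, Hexim1, Ckb and Egr2. Ifit3, an interferon-induced gene, stood at 14.01 and 39.6 CPM, 2.82-fold (2.11 to 3.84), in 26 and 96 members, and 2 of 16 genes of the type I interferon list, Ifit3 and Irf7, were higher. Egr2, which IL4 induces in macrophages, stood at 23.8 and 47.4 CPM, 1.99-fold (1.58 to 2.54), with 86.2 and 124 CPM in other barcodes. Egr2 and Cish were called higher among 22 genes of the IL-4 receptor, signalling and response list, and none was called lower. Across all genes tested, 4.64% were higher and 6.44% lower. Among costimulatory genes Cd70 was higher, at 39.8 and 63.0 CPM, 1.58-fold (1.32 to 1.92), and Slamf1, Tnfrsf4 and Timd4 were lower.

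For Cxcl3, Ccl2, Ly6c2 and Areg the direction differed with the kind of barcode. In Xist-only members (133 control and 358 IL4) the log2 ratio was 1.20 for Cxcl3, 1.05 for Ccl2, 1.82 for Ly6c2 and 0.92 for Areg, while in Y-only members (80 and 74) it was -0.34, -0.57, -0.59 and -0.13. Ccl4 (0.97 and 1.51), Il12b (1.04 and 1.71), Ccl5 (0.79 and 0.43) and Ifit3 (1.87 and 1.39) were higher in IL4 members of both kinds. For Cxcl2 the Xist-only members gave 0.83 and the Y-only members 0.08.

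Heat-shock genes were lower in IL4 members. Of 17 genes of the list of immediate-early and heat-shock genes, 5 were lower and none higher: Hspa1a, Hspa1b, Hspb1, Dnajb1 and Hsp90aa1. Hspa1a, an inducible chaperone, stood at 1551 and 760 CPM, a 2.04-fold difference (1.97 to 2.12), and Hspa1b at 966 and 459 CPM; these are near-identical copies, so the split between them is uncertain. Hspb1 stood at 66.6 and 14.5 CPM, 4.58-fold lower (3.6 to 5.86), with 100 of the 266 control UMIs in 1 member. Other barcodes differed in the same way, at 1617 and 875 CPM for Hspa1a and 82.9 and 23.8 CPM for Hspb1. These genes also respond to the handling of tissue, and its part in the result was not tested.

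The other lower genes included some seen in few members. Negr1 stood at 20.8 and 2.19 CPM, but 75 of its 83 control UMIs came from 1 member, and without the top member of each library its log2 ratio moved from -2.77 to -0.23. Dscam, an adhesion molecule of neurons, stood at 79.8 and 27.8 CPM, 2.87-fold lower (2.38 to 3.46), in 65 and 64 members, with 28.1 and 28.7 CPM in other barcodes. Syn3, a synapsin and 1 of the 12 genes that marked the members, stood at 196 and 97.3 CPM, 2.01-fold lower (1.81 to 2.24). Top2a, a topoisomerase of dividing cells, stood at 28.5 and 8.45 CPM in 35 and 43 members, and in control it was at 87.2 CPM in members with few Fscn1 UMIs and 12.2 CPM in the rest. Spp1, at 41.0 and 15.2 CPM, is a macrophage gene that was also lower in other barcodes, at 321 and 122 CPM. The remaining names were Mir99ahg, Egf, Dkk2, Slamf1, Ror1 and Hist1h2ap.

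The lineage markers of cDC1 had a median of 0.48, with 5 of 13 higher and none lower, and a median of 0.06 in cDC2-side members. Naaa, a lysosomal amidase of cDC1, stood at 34.5 and 65.2 CPM, 1.89-fold (1.55 to 2.31), Clec9a, the receptor for dead cells, at 3.25 and 8.91 CPM, and Xcr1 at 1.25 and 5.47 CPM. In other barcodes Naaa was at 246 and 202 CPM. At 2000 UMIs, Clec9a was seen in 0.364% of control and 1.52% of IL4 members against 0.448% and 1.04% of lymphocyte barcodes, so its share is close to background. The cDC2 markers had 0 of 13 higher and 1 lower, Cd209d.

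Lists of other cell types differed as well. T and NK cell genes had 5 of 7 higher, with summed levels of 19.5 and 45.2 CPM, and B16 melanoma genes 4 of 5, with 40.5 and 55.2 CPM. The melanoma gene Pmel had 0 control UMIs and 57 IL4 UMIs, of which 48 lay in 1 member. Macrophage genes had 2 of 12 higher, C1qa and Ms4a7, neutrophil genes 2 of 5 lower, S100a8 and S100a9, and plasmacytoid DC genes none of 4 in either direction. Cd3d, Cd3e, Cd3g and Ncr1 were at 0 by the rule. The part of these genes' cells in the other differences was not tested.

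**Figure D5:**
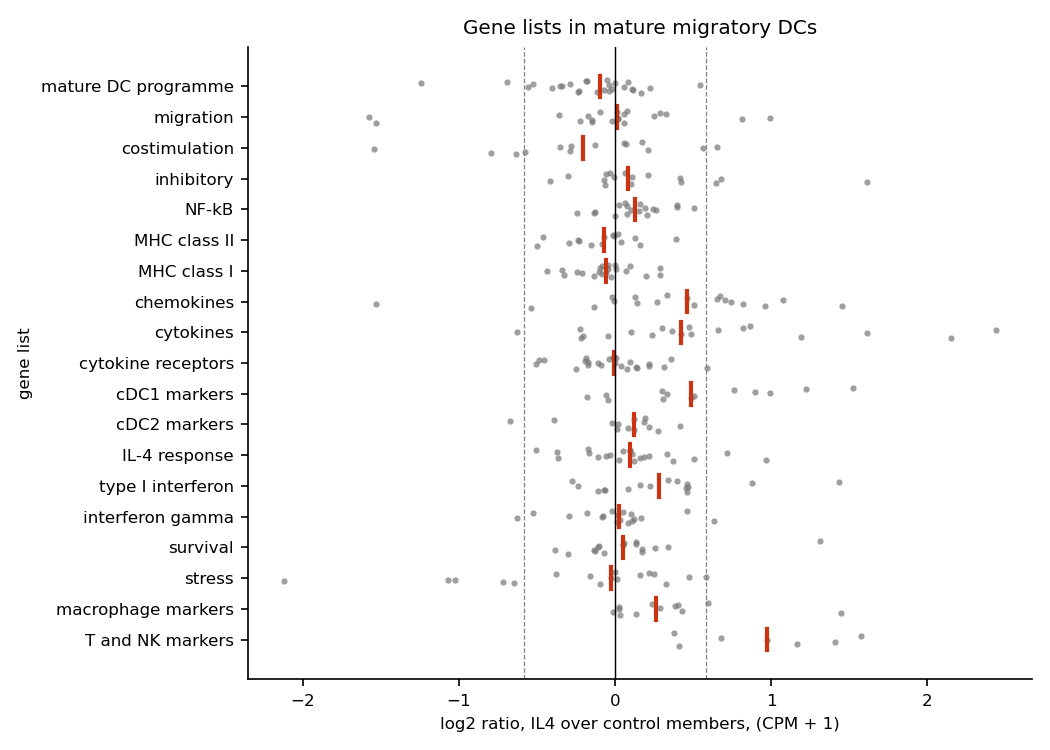
Log2 ratio of IL4 over control members, on CPM + 1, for the genes of each list (points), with the list median as a red bar and dashed lines at 1.5-fold. The medians of chemokines (0.46), cytokines (0.42) and cDC1 markers (0.48) lie right of 0, and those of the MHC class II genes (-0.07) and the mature programme (-0.09) close to it.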

How the data were processed

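Single-cell RNA was measured in 2 libraries of CD45-positive tumour cells, 1 per group. The deposited matrices hold UMI counts of 32285 genes for 8994 control and 13873 IL4 barcodes, made with Cell Ranger 7.2.0 on mm10 (per the submitters' processing notes, which name no annotation release). Replicates, and so tests, were not available.

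From the counts, kept barcodes (8937 and 13762) and members were selected by the limits stated in the report. UMIs were summed per class and library and divided by the class total. Genes needed at least 20 member UMIs over both libraries (all genes of a list likewise) to enter the comparison of the libraries, with a pseudocount of 1 CPM and a call at 1.5-fold. Cell type comparisons needed 1.5-fold in both libraries. Comparison classes were cDC1 barcodes (Xcr1 and Clec9a at least 3), Cd209a barcodes (at least 2), C1q barcodes (at least 10) and lymphocyte barcodes. All but the lymphocyte barcodes had under 3 Ccr7 UMIs, under 3 Siglech UMIs and no T or NK cell UMI of the rule. The cDC1 and Cd209a barcodes also had under 10 complement UMIs and no UMI of Mki67 or Top2a. Lymphocyte barcodes had at least 3 UMIs of Cd3d, Cd3e, Cd3g and Ncr1, under 3 complement UMIs and under 10 of Cd74 and H2-Aa. Lower lymphocyte genes in members follow from the rule. Thinning used a fixed seed. Python 3.11.15, numpy 2.4.6, scipy 1.17.1, pandas 2.3.3 and matplotlib 3.10.9 were used, and the scripts were tested on simulated data.

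Named genes were the 12 highest and 8 lowest of members against other barcodes, the 12 highest and 12 lowest ratios between the libraries (at least 50 UMIs, at least 20 CPM), the 12 highest Fano factors, up to 5 genes per list and the gate genes. The Fano factors were taken over genes with a mean over 0.2 thinned UMIs in both libraries, a limit added later. Some genes that the rule names are not reported here. Genes named outside it were chosen after their values were seen. The members and the 30 gene lists were chosen with earlier results of these data known. The division by Fscn1, the motif search and 3 alternatives (a T and NK limit of 2 UMIs, members with at least 3 Fscn1 UMIs, and no barcodes with both Xist and Y-linked UMIs) were chosen after seeing the data. Gene positions are from the GENCODE annotation of mm10, and promoters from RefSeq; Ccr7, Cd40, Relb and Cd83 were named only.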

Additional observations from a re-analysis of the deposited data

Results flagged for a closer look

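Xist-only members (133 control and 358 IL4) were set beside Y-only members (80 and 74). This covered only named and list genes with at least 20 UMIs in each set. Among Xist-only members, 10.6% of 9546 genes were at least 1.5-fold higher in IL4 and 6.69% lower. Among Y-only members, 7.0% of 6844 genes were higher and 18.6% lower. In 17 of the named and list genes the sets differed between the libraries by at least 1.5-fold in opposite directions. The difference was not tested, and each value is a log2 ratio of IL4 over control from 1 library per group. Of these, 9 genes found in monocytes and macrophages were higher in IL4 among Xist-only and lower among Y-only members, while other markers of these cells were higher in both kinds, such as C1qa with 0.80 and 0.49 and Apoe with 0.53 and 0.30. Lyz2 had 1.03 and -1.91, Vcan 1.06 and -3.25, Ccr2 0.939 and -1.05, Ly6c2 1.82 and -0.587, Itgam 0.738 and -0.616, Msr1 0.64 and -1.88, Ifitm6 0.882 and -1.03, Clec4n 0.609 and -0.618 and Clec4a2 0.87 and -1.27. The interferon-induced genes Gbp7 (1.22 and -0.613), Iigp1 (1.2 and -1.17) and Cxcl9 (0.994 and -1) had the same order. Ccl24 (1.57 and -3.37), the nuclease gene Dnase1l3 (0.897 and -1.56) and the cytokine subunit Ebi3 (0.702 and -0.669) did too. The order was the opposite in Cd209d, with -1.69 and 0.726, and in the immediate-early gene Egr1, with -0.855 and 0.747. Barcodes with UMIs of both kinds, 49 control and 68 IL4 members, entered neither set.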

How the results depend on the processing

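No paired analysis was possible because each group has 1 library, and leaving out replicates could not be run for the same reason. The difference in share stayed within its interval under each alternative except in Y-only barcodes, with 2.83 points. With at least 3 Fscn1 UMIs it was 0.41 points and its own interval held 0, as it did in Xist-only barcodes. The counts of genes at least 1.5-fold higher and lower (500 and 693) became 63 and 115 with a pseudocount of 10 CPM, 169 and 235 with at least 100 UMIs per gene (2.4% and 3.33% of 7049), and 932 and 1472 with no minimum. They were 1015 higher in Xist-only and 1273 lower in Y-only members, where fewer members were summed. The median of the melanoma list turned to -0.34 with a second limit of 10, -0.46 with limits after thinning, -0.58 in Y-only members, -0.29 in cDC2-side members, -0.18 with at least 100 UMIs and -0.39 with at least 3 Fscn1 UMIs. Ccl24 turned to 0.36 with a second limit of 10, 0.36 with limits after thinning, 1.57 in Xist-only members and 2.21 with at least 3 Fscn1 UMIs, where Timd4 turned to 0.0432. After thinning Abca1 turned to -0.0705 and Dct to -0.63. Mertk turned to 0.0678 in Xist-only members. In Y-only members Cxcl3 turned to -0.34, Ly6c2 to -0.59, Areg to -0.13, Ccl2 to -0.57, Cd209d to 0.73, Pdk1 to 0.21 and Sqle to 0.51. In the 6 and 15 cDC1-side members Ccl5 turned to -1.40, Pvr to -0.63, Hspa1b to 0.0437 and Dnajb1 to 0.47, and in cDC2-side members Irgm2 turned to 0.31, S100a8 to 0.18 and S100a9 to 0.62. The cause was not tested. Over all alternatives the log2 ratio ran from 0.06 (cDC2-side members) to 3.11 (cDC1-side members) for Il12b, from 0.85 to 2.05 for Ccl4, from 0.08 (Y-only members) to 0.95 (cDC1-side members) for the chemokine median and from 0.06 (cDC2-side members) to 1.12 (cDC1-side members) for the cDC1 median. In all, 7479 gene values stayed within their counting interval, 1129 left it and 22 turned, and 567 list medians moved by less than the typical interval of their genes, 50 by more and 6 turned. Depth limits genes under about 50 UMIs, whose fold intervals are wide.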
